A study of Homo sapiens with 6 samples.

Results

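The cytosolic heat shock response was described by 10 genes chosen by symbol: HSF1, HSPA1A, HSPA1B, HSPA8, HSP90AA1, HSP90AB1, HSPH1, DNAJB1, HSPB1 and BAG3. All 10 were found among the 17631 genes listed, and all 10 passed the filter on low values that left 12582 genes to test. They were measured by RNA-seq in 6 libraries of MDA-MB-231, an established human triple-negative breast cancer cell line that the labels also name as breast cancer tissue. In 3 libraries the cells had received vehicle, and in 3 they had received 30 µM PDBAG1, a peptide from the protein GPD1 joined to a cell-penetrating peptide, each for 24 h. Both groups were grown in the same serum-containing medium, and no allele or transgene differs between them. A single line, dose and time were profiled. No library received the cell-penetrating peptide alone, so its share in any difference was not tested. Neither the labels nor the methods say whether the 3 libraries of a group came from separate cultures, so p values measure the spread between these libraries, which may be technical.

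Cells keep their cytosolic proteins folded with a small set of ATP-driven chaperone machines. HSF1 is the transcription factor that, when unfolded proteins accumulate, binds heat shock elements and raises the transcription of chaperone genes; its activity is set mainly by its assembly into trimers and its release from chaperones rather than by its mRNA level. Some of its targets, such as HSPA1A, HSPA1B, DNAJB1, HSPH1 and BAG3, are strongly inducible, while HSPA8 and HSP90AB1 are the constitutive members of the HSP70 and HSP90 families and are abundant in growing cells. Cancer cells often depend on high levels of both families.

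The promoters of the members were described first. Heat shock elements are arrays of the letters GAA and TTC in alternating orientation, so the 250 bases before each transcription start were searched for GAANNTTC and TTCNNGAA, which each read the same on both strands and can overlap one another. Start sites were listed for 9 of the 10 members, in 14 promoters, and 7 of the 9 genes held a match in at least 1 promoter. Over all genes tested that had a promoter sequence the share was 12.1%. The stretches around the matches are shown for the HSP70 and HSP90 paralogues that are compared below and for DNAJB1, with the matched letters in capitals, as 5′ to 3′ on the gene's strand (RefSeq, GRCh38.p14).
HSPA1A, plus strand, chr6:31815422-31815459: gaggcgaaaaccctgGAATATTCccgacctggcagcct
HSPA1B, plus strand, chr6:31827618-31827655: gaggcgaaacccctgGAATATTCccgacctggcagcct
HSPA8, minus strand, chr11:123062164-123062381: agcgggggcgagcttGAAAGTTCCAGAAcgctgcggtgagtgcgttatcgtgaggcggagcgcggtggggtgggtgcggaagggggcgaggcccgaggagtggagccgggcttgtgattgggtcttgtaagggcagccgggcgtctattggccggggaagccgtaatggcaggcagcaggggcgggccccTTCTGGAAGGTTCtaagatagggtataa
HSP90AA1, minus strand, chr14:102087090-102087147: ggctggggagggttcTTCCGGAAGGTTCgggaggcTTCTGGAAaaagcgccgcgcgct
HSP90AB1, plus strand, chr6:44247763-44247858: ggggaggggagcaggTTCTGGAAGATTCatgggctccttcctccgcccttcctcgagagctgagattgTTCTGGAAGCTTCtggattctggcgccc
DNAJB1, minus strand, chr19:14518422-14518489: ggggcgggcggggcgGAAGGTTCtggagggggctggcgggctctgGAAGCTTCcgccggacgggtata
The constitutive genes HSPA8 and HSP90AB1 each held 4 matches, HSP90AA1 held 3, DNAJB1 held 2, and HSPA1A, HSPA1B and HSPB1 held 1 each. The matches lay before start 3 of HSP90AB1, start 2 of HSP90AA1 and start 2 of DNAJB1. The other listed starts of HSP90AB1, HSP90AA1 and DNAJB1 held none. The search found no match upstream of HSPH1 and BAG3. A match is a description of letters in this window and shows no binding.

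**Figure D1:**
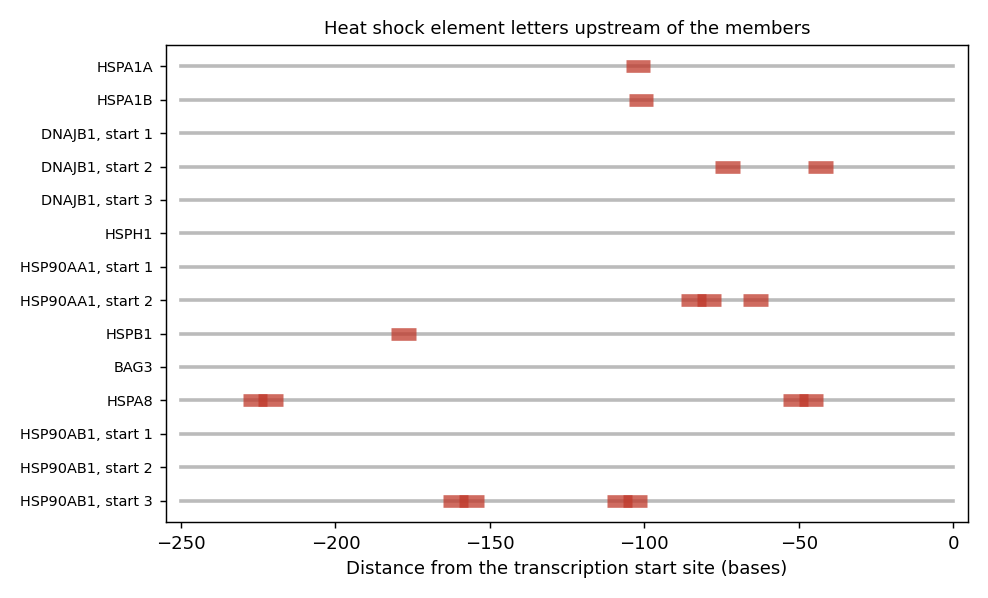
Positions of GAANNTTC and TTCNNGAA (red blocks) in the 250 bases before each start site listed for 9 members. The horizontal axis is the distance from the start site in bases, and each grey line is 1 promoter. HSPA8 and start 3 of HSP90AB1 carry 4 matches each, in overlapping pairs, against 1 each in HSPA1A and HSPA1B.

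The libraries carried the profile of the labelled line. VIM, the mesenchymal intermediate filament, was at 4174 to 4346 TPM with vehicle and 5758 to 5942 TPM with PDBAG1. TPM is an abundance corrected for transcript length and library total, which can be compared between genes. The mean of CD44 was also higher with PDBAG1 (321 with vehicle, 484 with PDBAG1). Those of AXL (384, 320), CAV1 (575, 467) and KRT18 (518, 447) were lower. PGR did not exceed 0.06 TPM and CDH1 did not exceed 0.84 TPM. ESR1 lay between 1.96 and 3.38 TPM, and EPCAM between 3.92 and 5.78 TPM. Summed over each marker list, the leukocyte (2 of 4 genes listed), fibroblast (3) and adipocyte (3) genes stayed under 10 TPM in every library. The 3 endothelial genes summed to 4.11 to 4.40 TPM with vehicle and 8.42 to 9.60 TPM with PDBAG1, nearly all from PECAM1, while VWF did not exceed 0.09 TPM. The TPM values keep no sequencing depth, so the depth of the libraries is unknown and no counting error can be given. Between 12392 and 12611 genes per library reached 1 TPM, and no library stood apart: the SD of log2 differences between libraries was 0.142 to 0.175 within the groups and 0.278 to 0.296 between them.

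Treatment with PDBAG1 was not accompanied by a rise of the inducible chaperones as a group. Of the 10 members, 1 rose and 4 fell at an adjusted p under 0.05 (limma over all 12582 genes, Benjamini-Hochberg), against 21.7% of all genes tested that rose, 15.9% that fell and 37.6% in either direction. No member reached a 1.5-fold change, the limit that 3.34% of all genes tested passed together with the adjusted p (2.86% higher, 0.477% lower). The 95% intervals of all 10 members lay between -0.33 and 0.24 on the log2 scale, inside the 0.585 that marks 1.5-fold. The members' median log2 fold change was -0.05 beside 0.03 over all genes tested. It was -0.089 beside -0.0074 under median-of-ratios scaling and -0.045 beside -0.020 under quantile normalization, where the gap was narrower. In 6 members the groups did not overlap, with PDBAG1 higher in 2 and lower in 4. Over all genes tested such a gap was found in 47.4%, with PDBAG1 higher in 27.2% and lower in 20.2%. The members were chosen with earlier results of these data known, so these counts describe them and support nothing further. In bulk libraries fewer cells expressing a gene and less RNA per cell cannot be told apart. Throughout, log2FC is the log2 fold change, PDBAG1 over vehicle, on the log2(TPM + 1) scale, and ± gives the SD over the libraries of a group (n = 3).

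**Figure D2:**
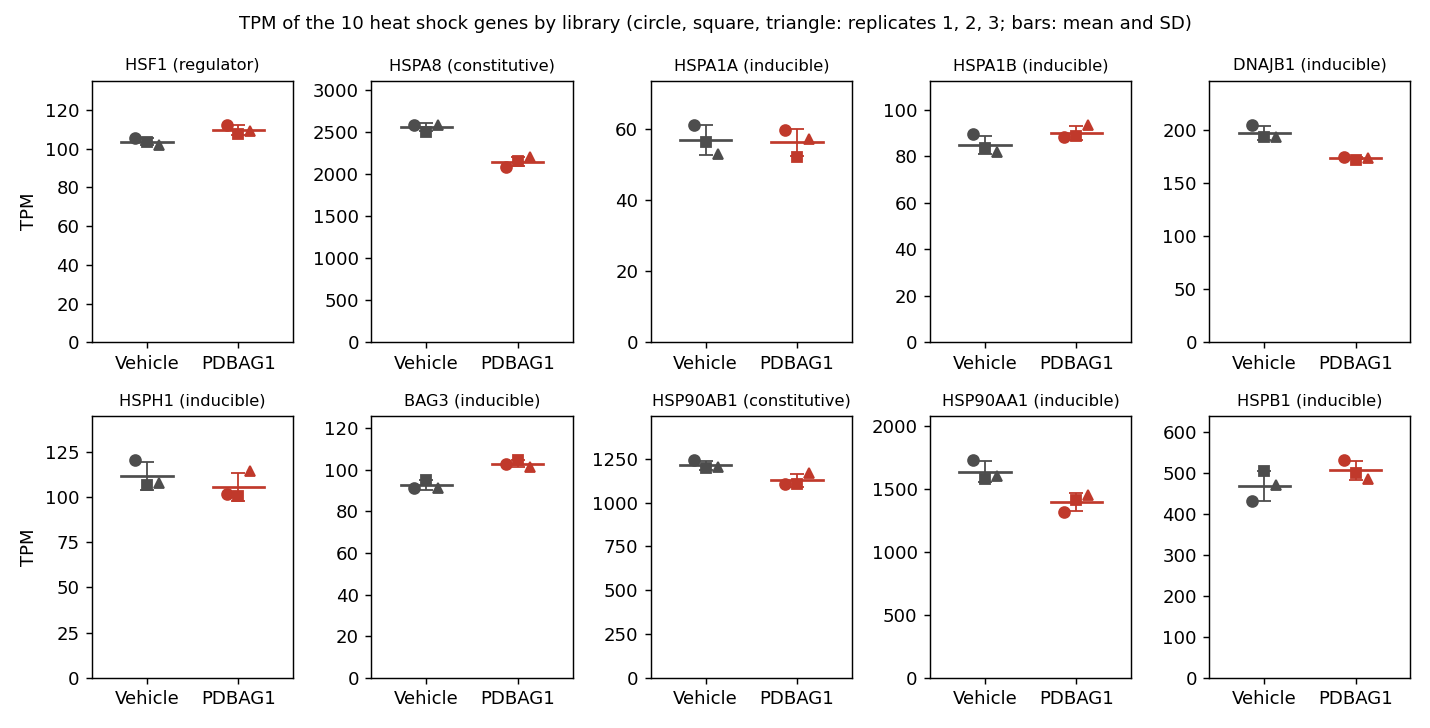
TPM of each member (vertical axes, from 0) in the 3 vehicle (grey) and 3 PDBAG1 (red) libraries, with the mean and SD. HSPA8, HSP90AB1, HSP90AA1 and DNAJB1 lie lower with PDBAG1 in all 3 libraries, HSF1 and BAG3 lie higher, and the other 4 overlap.

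HSF1 (ENSG00000185122; chromosome 8, 144291591 to 144314720, GRCh38, GENCODE v44, as for all positions below) encodes the regulator of the response. It was at 105, 104 and 102 TPM in the vehicle libraries and at 112, 107 and 109 TPM in the PDBAG1 libraries. The groups did not overlap, but the difference did not pass the test: 104 ± 1.75 against 110 ± 2.54 TPM (log2FC 0.08, SE 0.04, 95% interval -0.01 to 0.17, limma adjusted p = 0.142). HSF1 shares 137 exonic bases with DGAT1 on the opposite strand, and strand-specific counting is not given in the sources used here.

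The HSP70 family carries the folding work by binding exposed hydrophobic stretches of client proteins and releasing them on ATP exchange. HSPA8, the constitutive cognate HSC70 (ENSG00000109971; chromosome 11, 123057489 to 123063230), was the most abundant member in every library. It was at 2594, 2511 and 2592 TPM with vehicle and at 2093, 2156 and 2209 TPM with PDBAG1. All 3 treated libraries lay below all 3 vehicle libraries, and HSPA8 fell by 16.1% in mean TPM, from 2566 ± 47.1 to 2153 ± 58.2 TPM (log2FC -0.25 with an SE, the standard error, of 0.03, limma adjusted p = 4.62e-05). With any 1 library removed the log2FC stayed between -0.27 and -0.23 and kept its call. Its exons share 555 bases with a lncRNA gene on the opposite strand. GENCODE lists 17 pseudogenes named after HSPA8, none of them among the genes listed here, and reads from near-identical copies may be assigned to either.

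The stress-inducible HSP70 genes HSPA1A (ENSG00000204389; chromosome 6, 31815543 to 31817946) and HSPA1B (ENSG00000204388; chromosome 6, 31827738 to 31830254) lie next to each other in the major histocompatibility region. Of the 100-base windows of the HSPA1A transcript, 72.4% occur letter for letter in the HSPA1B transcript, so the split of reads between the copies is uncertain, and HSPA1B also shares 920 exonic bases with a lncRNA gene on its own strand. HSPA1A was at 61.2, 56.2 and 52.9 TPM with vehicle and at 59.6, 52.0 and 57.1 TPM with PDBAG1. HSPA1B was at 89.5, 83.6 and 82.0 TPM with vehicle and at 88.2, 88.5 and 93.6 TPM with PDBAG1. Both genes overlapped between the groups. Their log2 fold changes were -0.01 (95% interval -0.15 to 0.12, limma adjusted p = 0.883) and 0.08 (95% interval -0.02 to 0.19, limma adjusted p = 0.198). Summed into 1 gene, which does not depend on the split between the copies, they came to 142 ± 8.05 TPM in vehicle and 146 ± 5.24 TPM in PDBAG1 libraries (log2FC 0.05, 95% interval -0.06 to 0.15, limma adjusted p = 0.487). The sign of HSPA1A turned to 0.040 without vehicle replicate 1 and to 0.040 without PDBAG1 replicate 2, and it was past the threshold in neither.

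HSP70 needs J proteins, which deliver clients and start ATP hydrolysis, and nucleotide exchange factors, which release them. DNAJB1 (ENSG00000132002; chromosome 19, 14514769 to 14560391), the inducible J protein HSP40, was at 205, 193 and 194 TPM with vehicle and at 175, 172 and 174 TPM with PDBAG1. Every treated library was lower, and the mean of DNAJB1 fell, from 197 ± 6.88 to 174 ± 1.18 TPM (log2FC -0.18, SE 0.04, limma adjusted p = 0.00266). It kept its call with each library left out. Its annotated exons share 525 bases with TECR on the opposite strand.

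HSPH1 (ENSG00000120694; chromosome 13, 31134973 to 31162388) encodes the exchange factor HSP110. It was at 121, 107 and 108 TPM with vehicle and at 102, 101 and 115 TPM with PDBAG1, so the groups overlapped (112 ± 7.68 against 106 ± 7.62 TPM, log2FC -0.08, 95% interval -0.21 to 0.05, limma adjusted p = 0.306). The log2FC of HSPH1 ran from -0.026 without vehicle replicate 1 to -0.14 without PDBAG1 replicate 3. BAG3 (ENSG00000151929; chromosome 10, 119651380 to 119677819), an exchange factor that steers HSP70 clients towards autophagy, was at 91.1, 95.2 and 91.3 TPM with vehicle and at 103, 105 and 101 TPM with PDBAG1. BAG3 was the member that rose: all 3 treated libraries lay above the vehicle libraries, and the mean went from 92.5 ± 2.34 to 103 ± 1.69 TPM (log2FC 0.15, SE 0.04, limma adjusted p = 0.0127). This call was lost without vehicle replicate 3 (log2FC 0.14), without PDBAG1 replicate 2 (0.14) and under median-of-ratios scaling (0.11).

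HSP90 takes over clients such as kinases and steroid receptors from HSP70 for their last folding steps. The inducible form HSP90AA1 (ENSG00000080824; chromosome 14, 102080742 to 102139699) was at 1729, 1580 and 1599 TPM with vehicle and at 1314, 1412 and 1454 TPM with PDBAG1. HSP90AA1 fell by 14.9% in mean TPM, from 1636 ± 81.2 to 1393 ± 72.0 TPM (log2FC -0.23, SE 0.04, limma adjusted p = 0.000991). The groups did not overlap, and the call held with each library left out (-0.26 to -0.19). Its exons share 197 bases with WDR20 on the opposite strand. GENCODE lists 5 pseudogenes of the HSP90AA series and 6 of the HSP90AB series.

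The constitutive form HSP90AB1 (ENSG00000096384; chromosome 6, 44246166 to 44253888) was at 1244, 1195 and 1202 TPM with vehicle and at 1106, 1107 and 1169 TPM with PDBAG1. It fell by 7.12% in mean TPM, from 1214 ± 26.3 to 1127 ± 36.1 TPM (log2FC -0.11, SE 0.03, limma adjusted p = 0.0268). This was the least stable of the 4 falls. Its call was lost without vehicle replicate 1 (-0.09), vehicle replicate 3 (-0.11), PDBAG1 replicate 1 (-0.09) or PDBAG1 replicate 2 (-0.09), with no expression filter (-0.11), under quantile normalization (-0.13) and without the variance trend (-0.11).

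HSPB1 (ENSG00000106211; chromosome 7, 76302673 to 76304295) encodes HSP27, a small heat shock protein that holds unfolded proteins without ATP. It was at 431, 504 and 470 TPM with vehicle and at 531, 501 and 485 TPM with PDBAG1. The groups overlapped, with 469 ± 36.4 against 506 ± 23.4 TPM (log2FC 0.11, limma adjusted p = 0.108). The difference passed the threshold without vehicle replicate 2, the highest vehicle library (0.17), and under quantile normalization (0.14). It was smaller without vehicle replicate 1 (0.054), without PDBAG1 replicate 1 (0.076) and under median-of-ratios scaling (0.070).

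**Figure D3:**
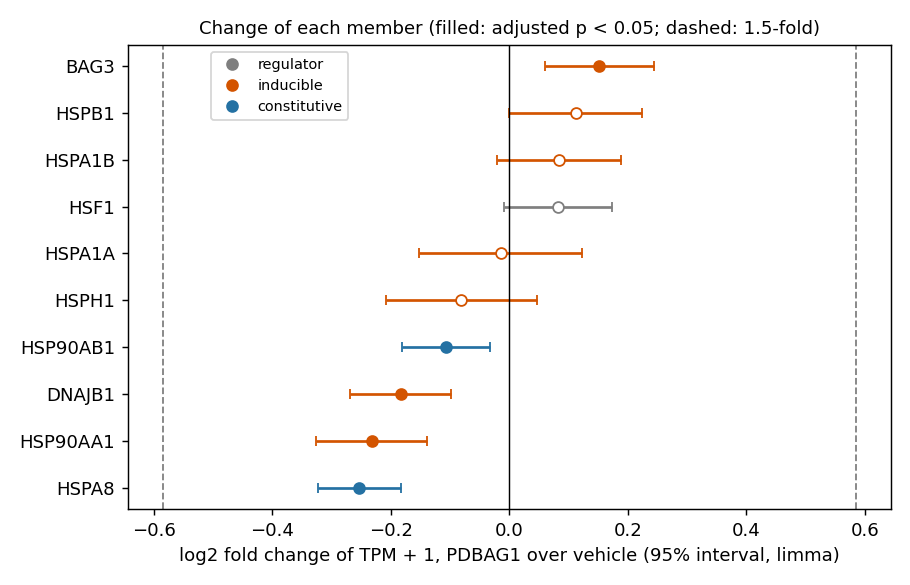
Log2 fold change of TPM + 1 (horizontal axis, PDBAG1 over vehicle) with the 95% limma interval for each member. Filled points passed an adjusted p of 0.05, colours give the role, and every interval stops short of the dashed 1.5-fold lines. The inducible genes lie on both sides of 0, from BAG3 at 0.15 to HSP90AA1 at -0.23.

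The inducible and constitutive chaperones were then set against each other within each library, which leaves out nearly all scaling between libraries. Of the 7 inducible members (HSPA1A, HSPA1B, DNAJB1, HSPH1, HSP90AA1, HSPB1 and BAG3), 1 rose, 2 fell and 4 did not pass the test, with a mean log2 fold change of -0.02. Both constitutive members fell, with a mean of -0.18. In mean log2(TPM + 1), inducible minus constitutive was -3.22, -3.22 and -3.28 with vehicle and -3.05, -3.10 and -3.10 with PDBAG1. The treated libraries were all higher, by 0.16, a value given without a test because the genes were chosen. The gap narrowed while the constitutive genes fell and the inducible genes, each given the same weight, had a mean change near 0. The summed TPM of the 7 inducible members, to which HSP90AA1 contributes most, was lower in every treated library. It was 2648 ± 70.2 TPM with vehicle and 2427 ± 54.1 TPM with PDBAG1.

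Each family was then described by a ratio of paralogues. For HSP70, the log2 ratio of HSPA1A plus HSPA1B to HSPA8 was -4.11, -4.17 and -4.26 with vehicle and -3.82, -3.94 and -3.87 with PDBAG1. HSPA8 therefore exceeded the inducible pair 18.1-fold with vehicle and 14.7-fold with PDBAG1. The difference in log2 ratio was 0.30, against SDs of 0.08 and 0.06 within the groups. An exact two-sided permutation test of 3 libraries against 3 gave p = 0.1 for this ratio and for the HSP90 ratio below. That is the smallest p it can give, so the test cannot decide, and the ratios remain descriptions. The inducible pair made up 5.23% ± 0.27 of the TPM of 6 cytosolic HSP70 genes (HSPA1A, HSPA1B, HSPA1L, HSPA2, HSPA6 and HSPA8) with vehicle and 6.35% ± 0.24 with PDBAG1.

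For HSP90, the same kind of ratio was lower with PDBAG1. The log2 ratio of HSP90AA1 to HSP90AB1 was 0.48, 0.40 and 0.41 with vehicle and 0.25, 0.35 and 0.31 with PDBAG1. The treated libraries were all lower, with a difference of -0.13 (SDs 0.04 and 0.05). Under quantile normalization the difference was -0.076. HSP90AA1 was 57.4% ± 0.67 of the TPM of both genes with vehicle and 55.3% ± 0.89 with PDBAG1. The opposite signs of the HSP70 and HSP90 ratios were not tested against each other.

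**Figure D4:**
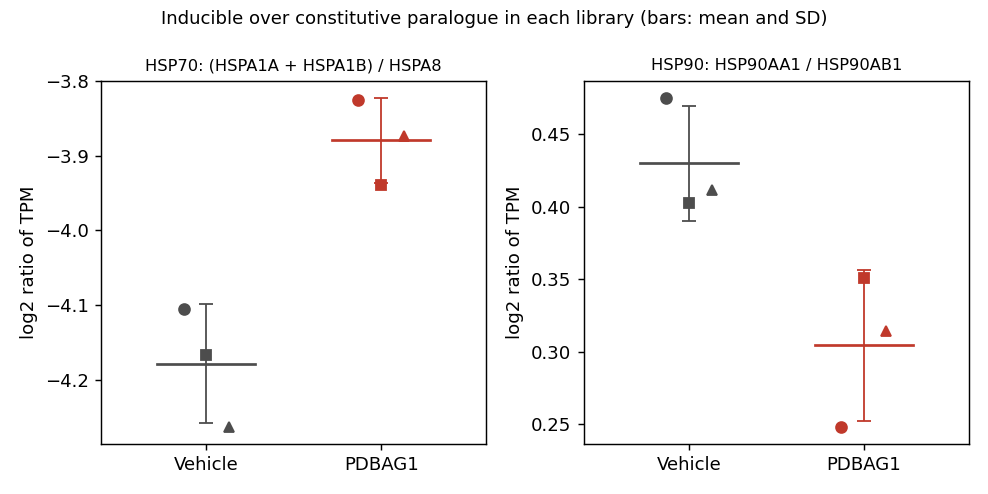
Log2 ratio of TPM of the inducible to the constitutive gene in each library (vertical axes, which do not start at 0), for HSP70 on the left and HSP90 on the right, with the mean and SD. PDBAG1 libraries lie above the vehicle libraries for HSP70 and below them for HSP90.

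The 10 members together took 6672, 6430 and 6493 TPM in the vehicle libraries and 5683, 5801 and 5967 TPM in the PDBAG1 libraries. Their summed TPM was lower in every treated library, at 5817 ± 143 against 6531 ± 125 TPM, a difference of -714 TPM. HSPA8 and HSP90AA1 carried most of it: without this pair the sum was 2329 ± 24.5 with vehicle and 2272 ± 35.6 with PDBAG1, and the groups overlapped. In TPM a lower share of one gene set is a higher share of others, and the amount of mRNA per cell was not measured.

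The other genes of the pathway were taken from 10 lists by role, 89 genes in all, of which 79 could be tested. The lists include 7 chaperones of the mitochondria and the endoplasmic reticulum, which lie outside the cytosol and of which 4 fell. Over these lists 9 genes rose and 31 fell at a limma adjusted p under 0.05, against 21.7% of all genes tested that rose and 15.9% that fell, shares that also stand behind the counts of the single lists below. The number that fell was 38 under median-of-ratios scaling and 25 without the variance trend. The median log2 fold change was -0.08 beside 0.03 over all genes tested. One gene, DNAJB2, reached 1.5-fold. Under median-of-ratios scaling the medians were -0.12 for the lists and -0.0074 for all genes, and under quantile normalization -0.083 and -0.020, a narrower gap.

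Further genes known to be induced by heat shock were at low levels in both groups. HSPA6, an HSP70 gene that is nearly silent without stress, did not exceed 0.68 TPM in any library (0.27, 0.43 and 0.61 TPM with vehicle, 0.67, 0.68 and 0.65 TPM with PDBAG1, without overlap), and DNAJA4 did not exceed 0.19 TPM. CRYAB, the inducible small chaperone αB-crystallin, did not exceed 0.43 TPM. All 3 were under the filter and were not tested. In the list of 8 other HSF1 target genes, 3 rose, 1 fell and 4 did not pass. HMOX1, which degrades haem and is also a target of NRF2, rose from 26.2 ± 2.15 to 36.5 ± 1.71 TPM (log2FC 0.46, limma adjusted p = 0.00013). DEDD2 rose by a log2FC of 0.29. IER5, which promotes HSF1 dephosphorylation, was the gene that fell (-0.17), and its call was lost in 4 of the 6 fits that left out a library: without vehicle replicate 1 (-0.16), 2 (-0.18) or 3 (-0.18), and without PDBAG1 replicate 2 (-0.16).

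Among 7 partners and regulators of HSF1, 2 rose and 5 did not pass. HSF4, a relative of HSF1 known mainly from the lens, rose from 7.34 ± 0.89 to 10.7 ± 0.35 TPM (log2FC 0.50, limma adjusted p = 0.00067). EP300, an acetyltransferase that acts on HSF1 and many other proteins, rose by 0.30. HSF2, the other broadly expressed heat shock factor, had a log2FC of -0.10 with overlapping groups.

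The HSP70 partners moved unevenly. Of 12 other cytosolic J proteins 11 were tested, and 2 rose, 2 fell and 7 did not pass. DNAJB2, which hands ubiquitinated clients to the proteasome, rose from 15.8 ± 0.37 to 25.8 ± 1.68 TPM (log2FC 0.67, SE 0.07, limma adjusted p = 4.27e-06). DNAJC5 rose by 0.14, a call lost without vehicle replicate 2 (0.11), vehicle replicate 3 (0.15), PDBAG1 replicate 2 (0.14) or PDBAG1 replicate 3 (0.12), under median-of-ratios scaling (0.10) and without the variance trend (0.14). DNAJA1, the most abundant of these J proteins with vehicle and a partner of HSPA8, fell from 364 ± 9.04 to 303 ± 13.2 TPM (log2FC -0.27), and DNAJC6, an auxilin that uncoats clathrin vesicles, fell by 0.30 on the log2 scale.

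Among 8 other HSP70 co-chaperones, 1 rose, 3 fell and 4 did not pass. BAG6, which guards exposed hydrophobic segments of new membrane proteins, rose from 157 ± 6.67 to 200 ± 1.22 TPM (log2FC 0.35). BAG2, an inhibitor of the ubiquitin ligase CHIP, fell from 93.9 ± 3.48 to 68.5 ± 5.66 TPM (log2FC -0.45, limma adjusted p = 5.36e-05). STUB1, which encodes CHIP itself, fell by 0.20 on the log2 scale, and HSPBP1, picked after its value was seen, by 0.15 with overlapping groups. The call of HSPBP1 held, of the 6 fits that left out 1 library, in the one without PDBAG1 replicate 1 (log2FC -0.12 to -0.21 over the 6), and it was lost under quantile normalization (-0.16). The BAG family was thus split, with BAG3 and BAG6 higher, BAG2 lower, and BAG1 (-0.11), BAG4 (-0.03) and BAG5 (-0.02) not past the test. Under median-of-ratios scaling BAG3 was not called and BAG1 was (-0.15), and under quantile normalization BAG1 was also called (-0.15).

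Of 9 other HSP70 and HSP110 genes 7 were tested. HSPA14, a ribosome-associated HSP70, was the gene that fell (log2FC -0.25), none rose, and HSPA4, the abundant HSP110 relative, had a log2FC of -0.09 and overlapping groups. Of 9 other small heat shock protein genes 2 were tested. HSPB8, the partner of BAG3 in selective autophagy, rose from a low 3.70 ± 0.53 to 5.51 ± 0.78 TPM (log2FC 0.47, limma adjusted p = 0.00533). HSPB11, which despite its name is a subunit of the intraflagellar transport machinery, fell from 112 ± 4.29 to 95.4 ± 0.13 TPM (log2FC -0.23).

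The co-chaperones and machines that work beside HSP90 and HSPA8 were described next. Of 15 HSP90 co-chaperones 7 fell, none rose and 8 did not pass. Of these 7, STIP1 (log2FC -0.11) and TTC4 (-0.16) each kept the call in 1 of the 6 fits that left out a library. STIP1 also lost it under quantile normalization (-0.08). FKBP5 and FKBP4, the immunophilins that tune steroid receptors on HSP90, fell by 0.36 and 0.34 on the log2 scale (limma adjusted p = 0.000373 and 7.26e-05). CDC37, which brings kinases to HSP90, was at 492 ± 18.8 and 495 ± 14.1 TPM (log2FC 0.01, or -0.03 under median-of-ratios scaling). All 8 subunits of TRiC, the ring-shaped chaperonin that folds actin and tubulin, fell, with a median log2 fold change of -0.22 and a range from -0.30 for CCT2 to -0.11 for CCT8, named as the end of the range. The call of CCT8 held, of the 6 fits that left out 1 library, in the one without PDBAG1 replicate 3 (-0.08 to -0.13 over the 6) and was lost under quantile normalization (-0.07). The summed TPM of the 8 subunits was 3111, 3022 and 3041 with vehicle and 2550, 2631 and 2719 with PDBAG1, with no overlap. CCT2 fell from 345 ± 1.81 to 280 ± 11.4 TPM and CCT6A from 419 ± 15.5 to 349 ± 14.0 TPM. Of the 6 subunits of prefoldin, which delivers clients to TRiC, 4 fell and 2 did not pass, with PFDN2 and VBP1 lowest at -0.22 each. The fall of PFDN4 (-0.13) kept its call in 1 of the 6 fits that left out a library.

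**Figure D5:**
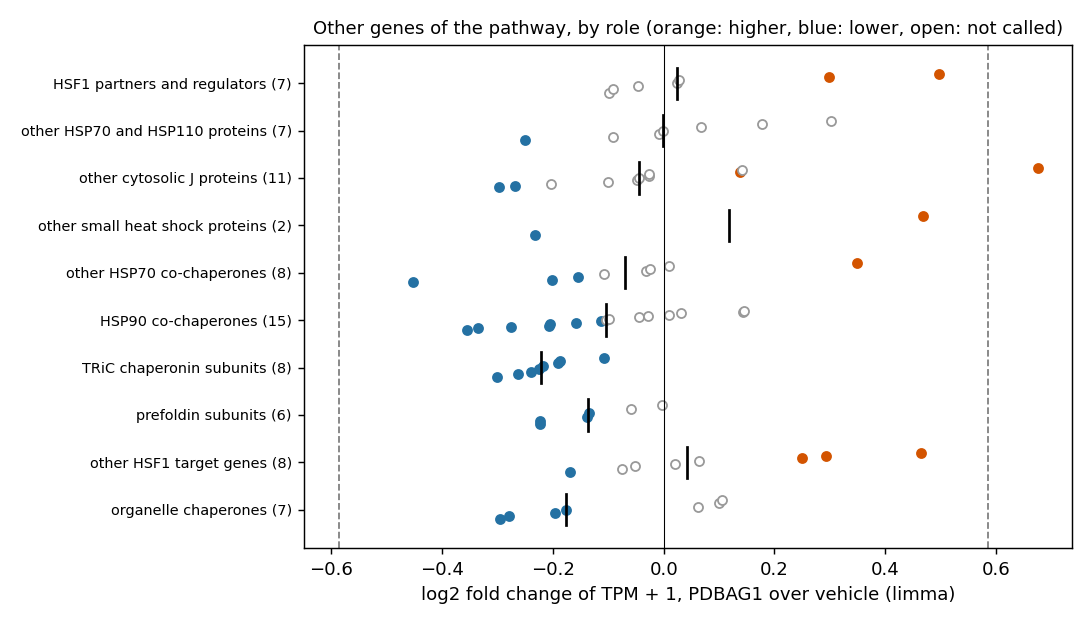
Log2 fold change of TPM + 1 (horizontal axis) for the 79 tested genes of 10 role lists, with the number tested in brackets, the median as a black line and 1.5-fold as dashed lines. The 8 TRiC subunits all lie below 0, while the list of other HSF1 target genes holds 3 genes that rose and 1 that fell.

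Chaperones of other compartments served as a comparison for the members. The mitochondrial chaperone genes HSPD1, HSPE1, HSPA9 and TRAP1 fell, by 0.28, 0.30, 0.18 and 0.20 on the log2 scale, HSPA9 and TRAP1 being picked after their values were seen. In the endoplasmic reticulum HSPA5, HSP90B1 and HYOU1 had log2 fold changes of 0.10, 0.10 and 0.06, and none passed the test. HSPA5 passed under quantile normalization (0.14), and HSPA5 and HSP90B1 each passed in 2 of the 6 fits that left out a library. Under median-of-ratios scaling the 3 values were 0.06, 0.06 and 0.02, and none passed.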

How the data were processed

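mRNA libraries of MDA-MB-231 cells were made after 24 h of vehicle or 30 µM PDBAG1. According to the methods, the authors sequenced them on the BGISEQ platform, mapped reads with HISAT2 to GRCh38 and normalised counts to FPKM. The submitters' processing notes name HISAT2 2.0.4, Bowtie2 2.2.5, RSEM 1.2.12 and GRCh38.p12. The deposited values are TPM with 2 decimals, summing to about the same total per library, and the step that made them is not given in the sources used here. TPM hold no depth, so precision rests on 3 libraries per group.

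Samples were grouped by their titles. The members and lists were chosen with earlier results of these data known. Genes that reached 1 TPM in any 3 of the libraries entered the test, on log2(TPM + 1), with limma 3.58.1 in R 4.3.3 (lmFit, eBayes with trend), and calls were made at a Benjamini-Hochberg adjusted p under 0.05. The 2 paralogue ratios within libraries went through an exact two-sided permutation test, whose p cannot go below 0.1, and are given as descriptions. The text names all members and, per list, up to 2 called genes per direction with the largest change and no overlap. HSPBP1, CCT8, STIP1, TTC4, PFDN4, HSPA9, TRAP1 and the uncalled genes of the lists were added after their values were seen. Other filters, a pseudocount of 0.1, scalings, a replicate block and left-out libraries were tried. Positions are from GENCODE v44 and promoters from RefSeq.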

Additional observations from a re-analysis of the deposited data

How the results depend on the processing

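For the single members, 116 of 131 alternative values kept their direction and their side of the threshold. In 11 the call was lost (HSP90AB1 and BAG3), in 2 it was gained (HSPB1), and in 2 the sign of HSPA1A turned, its log2 fold change running from -0.063 to 0.040 over the fits that left out a library. The number of members that rose, 1, became 0 under median-of-ratios scaling and 2 under quantile normalization, and ran from 0 to 2 with each library left out. The difference in the log2 ratio of HSP90AA1 to HSP90AB1 was -0.076 under quantile normalization against -0.13, and the difference in summed TPM of the members was -893 under median-of-ratios scaling against -714. The cause was not tested. No member reached 1.5-fold under any alternative run, so neither did one at a fold limit of 2. Of 299 alternative values of the 23 pathway genes named by the rule, 12 lost their call (DNAJC5 and IER5) and none changed sign.

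The replicate numbers share no stated origin. The deviations of like-numbered libraries correlated at -0.21, 0.01 and -0.08, and 1 of the 6 libraries correlated best with the library of its own number. With the number as a replicate block, 3951 genes passed against 4736, and among the members 1 rose and 3 fell. Of the pathway genes 8 rose and 25 fell. Among the genes named in the text HSP90AB1, DNAJC5, HSPBP1, CCT8, STIP1, TTC4, PFDN4 and IER5 lost their calls under the block. The summed TPM takes no pseudocount, so that alternative gave no value. Depth is unknown, which leaves low genes such as HSPA6 without a limit of detection.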
